A study of Homo sapiens with 9 samples.

Results

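Knockdown of EZH2 was compared directly with knockdown of E2F1 in MDA-MB-231 cells, a human triple-negative breast cancer line, with the control shRNA left out of the choice of regions. The comparison used 4 of the 9 ATAC-seq libraries of the series, 2 labelled shEZH2 and 2 labelled shE2F1. All 4 came from cells that received an shRNA by lentivirus over 24 h, followed by 72 h of puromycin at 2 μg/ml, and 50000 cells and 7 cycles of PCR were used per library. The other 5 libraries, 2 shCtrl (control shRNA, the same virus and selection), 1 shSUZ12, 1 DMSO (solvent) and 1 GSK126 (a small molecule that blocks EZH2 activity), were not used to choose the regions. Peaks of the 4 lists that shared 1 bp or more were joined, which gave 101050 regions. The regions studied were those with a peak in both libraries of one knockdown and in neither library of the other. There were 7863 of them, 1390 with shEZH2 only and 6473 with shE2F1 only.

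EZH2 is the catalytic subunit of PRC2, the complex that methylates lysine 27 of histone H3 and is known for keeping developmental genes silent. E2F1 is a transcription factor that binds promoters of cell cycle genes and drives entry into S phase, under the control of the RB family of repressors. In ATAC-seq the Tn5 transposase cuts accessible DNA, so a peak marks open chromatin at a promoter or an enhancer. Enhancers of epithelial and mesenchymal cells often carry motifs of AP-1 (the FOS and JUN family), RUNX (CBFB partners) and TEAD (the partners of YAP) factors, whereas promoters often carry motifs of NF-Y, SP/KLF, ETS, NRF1 and E2F factors.

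The deposited lists held 72202 and 58626 peaks for shEZH2 and 68294 and 85812 peaks for shE2F1, replicates 1 and 2 in that order. Depth differed within each knockdown. The most frequent local background at a peak was 1.95 and 1.41 tags in the shEZH2 libraries and 1.5 and 2.18 tags in the shE2F1 libraries, so the shallowest library had the shortest list and the deepest the longest. The promoters of all 12 mesenchymal markers of this line had a peak in at least 1 of the 4 libraries, against 3 of 12 blood cell markers and 1 of 10 hepatocyte markers, and 14 of 16 luminal breast markers also had one. Peak lists hold no RNA level, so the depletion of EZH2 and E2F1 was not checked here. The labels do not say whether replicates were separate cultures, so the p-values below measure only the spread between these libraries. In a bulk sample, fewer cells with an open site and a less open site in each cell cannot be told apart.

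Regions of each kind with the strongest peaks in both libraries are printed here in GRCh38, plus strand, as 300 bases around the summit. They rank among the first of each kind by the weaker of the 2 libraries, and are shown as the clearest cases in which one knockdown had a peak and the other had none. Capitals mark matches to the motifs RUNX (TGTGGT), NF-Y (CCAATC), AP-1 (TGACTCA) and SP/KLF (GGGCGGG) on either strand.
shEZH2 only, chr9:20579600-20579899, RUNX in capitals: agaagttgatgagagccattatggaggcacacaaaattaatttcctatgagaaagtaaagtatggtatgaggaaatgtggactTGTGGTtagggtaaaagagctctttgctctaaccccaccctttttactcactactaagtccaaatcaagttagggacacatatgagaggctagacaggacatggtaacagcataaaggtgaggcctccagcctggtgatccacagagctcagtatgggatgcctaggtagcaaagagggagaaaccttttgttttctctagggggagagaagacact
shE2F1 only, chr2:72367854-72368153, NF-Y in capitals: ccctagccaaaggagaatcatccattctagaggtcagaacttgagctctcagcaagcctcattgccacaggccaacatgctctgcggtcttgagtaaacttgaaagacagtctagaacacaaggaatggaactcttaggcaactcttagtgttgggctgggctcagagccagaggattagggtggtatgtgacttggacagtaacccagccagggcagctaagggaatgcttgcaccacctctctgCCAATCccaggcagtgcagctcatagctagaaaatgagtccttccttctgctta
shE2F1 only, chr17:4658432-4658731, SP/KLF and then AP-1 in capitals: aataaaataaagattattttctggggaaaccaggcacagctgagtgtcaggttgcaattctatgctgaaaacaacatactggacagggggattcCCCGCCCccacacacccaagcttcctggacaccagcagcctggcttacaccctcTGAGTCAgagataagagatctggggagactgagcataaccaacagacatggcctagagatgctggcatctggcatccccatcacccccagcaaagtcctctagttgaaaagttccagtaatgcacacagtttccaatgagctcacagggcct

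The shEZH2 only region printed here lay in an intron 42749 bp from the TSS of MLLT3, a subunit of the super elongation complex. Its fold enrichment, the ratio of tags at the summit to the local background, was 10.7 and 10.4 with shEZH2. It had peaks of 10.4 and 13.0 with shCtrl, 8.97 with DMSO, 8.93 with GSK126 and 5.79 with shSUZ12, so the 2 shE2F1 libraries were the only ones of the 9 without a peak.

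The region at chr2:72367643-72368206 lay in an intron 220142 bp from the TSS of CYP26B1, a retinoic acid hydroxylase. It had 13.7 and 16.9 with shE2F1, 12.5 and 15.3 with shCtrl, 14.4 with DMSO, 21.9 with GSK126 and 14.5 with shSUZ12. Only the 2 shEZH2 libraries lacked a peak there. The region 16904 bp from the TSS of ALOX15, a lipoxygenase gene, had 12.9 and 14.8 with shE2F1 and no peak with shSUZ12. Its shCtrl values were 12.9 and 8.77.

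The next regions by the same rule lay nearest to TIGIT and BMPR1B with shEZH2 only, at 10.1 to 12.6 in the shEZH2 libraries. With shE2F1 only they lay nearest to SLC38A11, ZEB2 and ARHGAP24, at 11.98 to 13.89 in the shE2F1 libraries. ZEB2 encodes a repressor of epithelial genes, and the region nearest to it, at chr2:145459938-145460520 and 940203 bp from its TSS, had no peak in any of the 5 other libraries. Its values were 11.98 and 13.89. These regions were chosen for their values in the 4 lists, so the values are a description.

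With all peaks, 1.38% of the 101050 regions had a peak with shEZH2 only and 6.41% with shE2F1 only, whereas 44212 regions (43.8%) had a peak in all 4 libraries. The 4 libraries can be paired in 2 other ways that mix the knockdowns. The first replicates against the second replicates gave 1138 and 1365 regions. The pairing of the longest lists, shEZH2 replicate 1 and shE2F1 replicate 2, against the shorter ones gave 4891 and 269 regions, an imbalance of the same kind as that between the knockdowns. When each list was limited to its 58626 peaks with the highest −log10 p, the counts were 2680 (3.43%) with shEZH2 only and 3615 (4.63%) with shE2F1 only of 78119 regions. The mixed pairings then gave 1270 and 1213, and 1621 and 914. The sum over both sides was 6295 for the knockdowns, against 2483 and 2535 for the mixed pairings, so at equal list lengths the libraries separated by knockdown more than by either other pairing. With 2 libraries against 2 an exact permutation test over libraries cannot go below p = 0.333, and no test was made on these counts.

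The excess of shE2F1 only regions depended on list length and on 1 library. Without shEZH2 replicate 2, which has the shortest list, 8500 regions were found with shEZH2 only and 8003 with shE2F1 only. The counts were 3555 and 13120 without shEZH2 replicate 1, 2008 and 21540 without shE2F1 replicate 1, and 5640 and 11360 without shE2F1 replicate 2. Counts grow in part because only 1 library of that knockdown then has to hold, or lack, a peak.

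**Figure D1:**
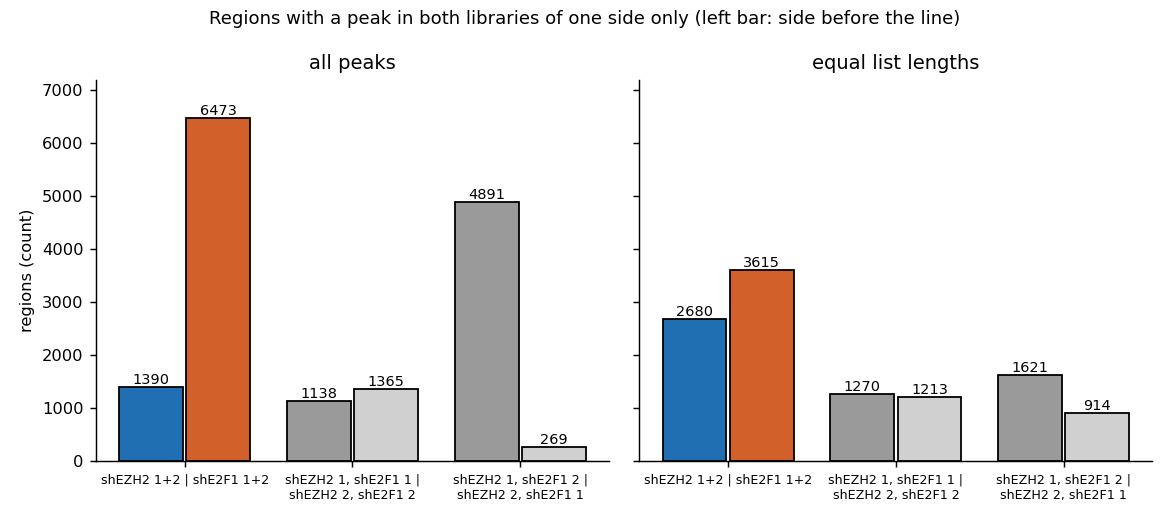
Number of regions (vertical axis) with a peak in both libraries of one side of a pairing and in neither of the other, for the knockdowns (colour) and the 2 mixed pairings (grey), with all peaks (left) and equal list lengths (right). At equal list lengths the knockdowns gave 2680 and 3615 regions and the mixed pairings 914 to 1621 a side.

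Pairs of libraries also shared more peaks within a knockdown. At equal list lengths the shEZH2 libraries shared 71.1% of their merged regions and the shE2F1 libraries 71.5%, and the 4 pairs of different knockdowns shared 63.9% to 69.0%. With all peaks these shares were 66.3% and 64.5%, against 57.6% to 63.2%.

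Most regions found with one knockdown only were distal. Of the shEZH2 only regions, 56.8% lay in introns and 34.4% between genes, and of the shE2F1 only regions 51.5% and 41.1%. The median distance to a protein-coding TSS was 47272 bp and 41047 bp, against 21450 bp for regions common to the 4 libraries. Promoters, taken as 1 kb on either side of a TSS, made up 4.32% (95% Wilson interval 3.37 to 5.52) of shEZH2 only and 3.77% (3.33 to 4.26) of shE2F1 only regions, against 25.6% of those common to the 4 libraries. With lists of equal length the promoter share was 6.49% (5.62 to 7.49) with shEZH2 only and 2.79% (2.30 to 3.38) with shE2F1 only. The mixed pairings gave 5.24% to 9.74%, so it was the shE2F1 only share that lay below the others. The intervals cover counting error only, and regions are not replicates.

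Both kinds of region held weak peaks. The median fold enrichment was 5.43 with shEZH2 only and 5.49 with shE2F1 only, against 8.10 in regions common to the 4 libraries. The median width was 309 bp and 344 bp, against 702 bp. Regions of the mixed pairings were weak and narrow too, at 4.99 to 5.35 and 285 to 319 bp, so this was not particular to the knockdowns. The GC content of the shEZH2 only and shE2F1 only regions was the same, with a median of 46.3% over the 300 bases at distal summits of each kind. The shEZH2 only regions made up 17.7% of both kinds over all chromosomes, and 27.2% on chromosome 13 and 25.1% on chromosome X, and 10.6% on chromosome 17 and 10.9% on chromosome 22. At equal list lengths the share was 42.6% over all chromosomes, 60.3% on chromosome 13, with 88 shEZH2 only and 58 shE2F1 only regions, and 29.1% on chromosome 17, with 73 and 178.

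The libraries that did not choose the regions held peaks at many of them. With all peaks, both shCtrl lists held a peak at 46.9% (44.3 to 49.5) of the shEZH2 only regions and neither did at 26.1%. For the shE2F1 only regions these shares were 37.2% (36.0 to 38.4) and 34.9%. Over all regions both shCtrl lists held a peak at 63.5%, and in the mixed pairings at 42.0% to 52.4%. The shEZH2 only share lay within that range and the shE2F1 only share below it. When the 6 lists of shCtrl, shEZH2 and shE2F1 were limited to equal length, both shCtrl lists held a peak at 34.5% (32.7 to 36.4) of 2612 shEZH2 only and 28.8% (27.3 to 30.3) of 3571 shE2F1 only regions. The intervals did not overlap in either case, and the shEZH2 only share was the larger. None of the 5 other libraries had a peak at 232 (16.7%) of the shEZH2 only and 1532 (23.7%) of the shE2F1 only regions. That share was 16.9% over all regions and 10.9% to 18.2% in the mixed pairings, so with all peaks only the shE2F1 only share stood apart. For regions chosen at equal list lengths it was 6.83% with shEZH2 only and 12.1% with shE2F1 only. The mixed pairings then gave 3.54% to 5.58%, below both kinds, and all regions 7.22%.

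Against the regions chosen at equal list lengths, every one of the 5 other libraries had a peak at a larger share of the shEZH2 only than of the shE2F1 only regions. The shares were 74.3% and 62.8% for shCtrl replicate 1, 78.8% and 70.2% for shCtrl replicate 2, 66.4% and 52.8% for shSUZ12, 62.0% and 56.0% for GSK126 and 69.0% and 66.7% for DMSO. SUZ12 is another core subunit of PRC2, and at equal list lengths its single library differed most between the 2 kinds. With all peaks shCtrl replicate 1 differed most, at 58.3% and 48.1%, against 47.8% and 38.9% for shSUZ12. DMSO differed least in both settings. At equal list lengths, regions of the mixed pairings had a peak at 63.8% to 69.3% in shSUZ12 and at 57.2% to 67.0% in GSK126. Their range was 74.5% to 78.4% in shCtrl replicate 1, 77.7% to 84.9% in shCtrl replicate 2 and 72.5% to 75.5% in DMSO. The shE2F1 only share lay below the range in all 5 libraries. The shEZH2 only share lay below it in DMSO and, by a small margin, in shCtrl replicate 1. With 1 library each, shSUZ12, GSK126 and DMSO have no replicate check.

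**Figure D2:**
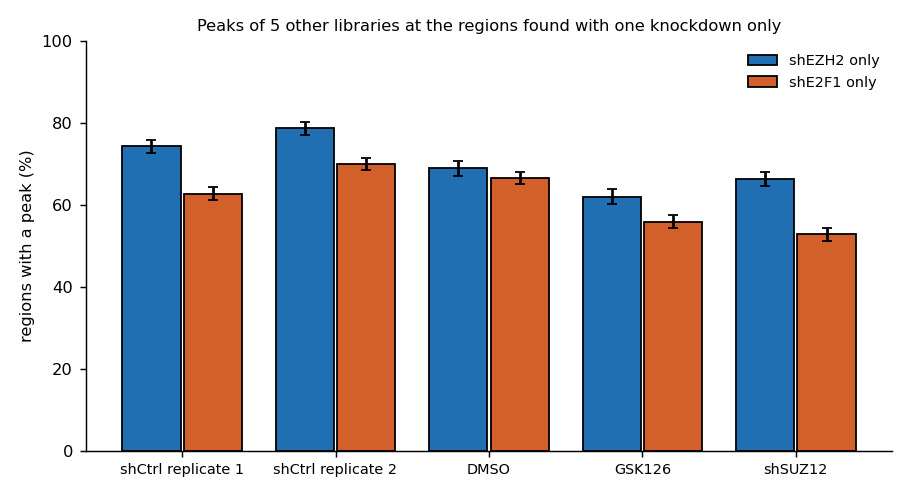
Share of the regions chosen at equal list lengths (vertical axis, percent) that had a peak in each of the 5 other libraries, for 2680 shEZH2 only regions (blue) and 3615 shE2F1 only regions (orange), with 95% Wilson intervals. The shEZH2 only bar is the higher one in every library, by most in shSUZ12 (66.4% against 52.8%).

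The distal regions of the 2 kinds differed in motif content. Motifs were searched as fixed letters on both strands in the 150 bp to each side of the highest summit, so a match is a run of letters and not a binding site. The RUNX letters TGTGGT were found at 32.6% (30.2 to 35.2) of 1330 distal shEZH2 only regions and at 24.2% (23.2 to 25.3) of 6229 distal shE2F1 only regions. Over all 86542 distal regions the share was 25.2%. With lists of equal length the shares were 30.6% (28.8 to 32.4) and 24.2% (22.9 to 25.7), and the regions of the mixed pairings held it at 23.4% to 25.1%. The shEZH2 only share then stood above those of the mixed pairings and the 26.3% of regions common to the 4 lists. With all peaks the mixed pairings ranged more widely, from 20.7% to 30.1%.

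The AP-1 letters TGACTCA ran the other way. They were found at 26.4% (24.1 to 28.8) of the shEZH2 only and 34.9% (33.8 to 36.1) of the shE2F1 only distal regions, against 32.7% over all distal regions. The mixed pairings ranged from 21.5% to 33.2%, so the shEZH2 only share lay within their range. With lists of equal length the shares were 31.0% (29.3 to 32.9) and 38.7% (37.1 to 40.4), against 27.5% to 35.4% in the mixed pairings and 41.6% for regions found in all 4 lists. At equal list lengths, distal regions of 30 to 40% GC held AP-1 at 30.7% of the shEZH2 only and 43.97% of the shE2F1 only regions. The AP-1 shares were 33.995% and 42.1% at 40 to 50% GC, and 29.3% and 34.6% at 50 to 60%. At 60 to 70% GC they were 19.2% and 19.4%, so the AP-1 difference was absent there. Over all distal regions AP-1 was at 40.2%, 40.7%, 35.1% and 20.2% in these steps. Below 60% GC the shE2F1 only shares were the nearer to these, and the shEZH2 only shares lay below them. RUNX was at 33.9% and 26.7%, 31.6% and 24.7%, 29.8% and 25.4%, and 21.9% and 11.98% in the same steps. Over all distal regions RUNX was at 27.3%, 28.1%, 25.5% and 17.8%.

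NF-Y letters (CCAATC) were found at 7.29% (6.02 to 8.82) of the shEZH2 only and 11.3% (10.6 to 12.1) of the shE2F1 only distal regions, around the 9.29% of all distal regions. SP/KLF letters were at 3.16% and 4.90%, both under the 6.72% of all distal regions. The E2F letters (TTTCCCGC, TTTGGCGC, TTTCGCGC or TTTGCCGC) were rare, at 1.05% (0.628 to 1.76) of the shEZH2 only and 0.610% (0.445 to 0.836) of the shE2F1 only distal regions, and at 0.835% of all. TEAD (ACATTCC) was at 10.2% and 9.50%. The CTCF motif was at 2.11% and 2.31%, against 3.60% of all distal regions. CRE letters (TGACGTCA) were at 0 of 1330 shEZH2 only regions, with a Wilson upper bound of 0.288%, and at 0.305% of the shE2F1 only regions. The shares of ETS (CCGGAAG), NRF1 (GCGCATGC), YY1 (AAGATGGC) and NF-kB (GGGACTTT) were each under 2% in both kinds, and their intervals overlapped.

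The RUNX difference was present both at regions that the control cells shared and at regions that they lacked. Where both shCtrl lists held a peak, RUNX was at 33.9% (30.3 to 37.7) of 619 shEZH2 only and 26.7% (24.9 to 28.5) of 2291 shE2F1 only regions. Among those without a shCtrl peak it was at 32.7% (28.0 to 37.7) of 355 and 22.5% (20.8 to 24.2) of 2213 distal regions. All of the strongest 5 shEZH2 only regions but that nearest BMPR1B carried the RUNX letters within the 300 bases, and none of the strongest 5 shE2F1 only regions did. Of the latter, the regions nearest ALOX15, SLC38A11, ZEB2 and ARHGAP24 carried the AP-1 letters.

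**Figure D3:**
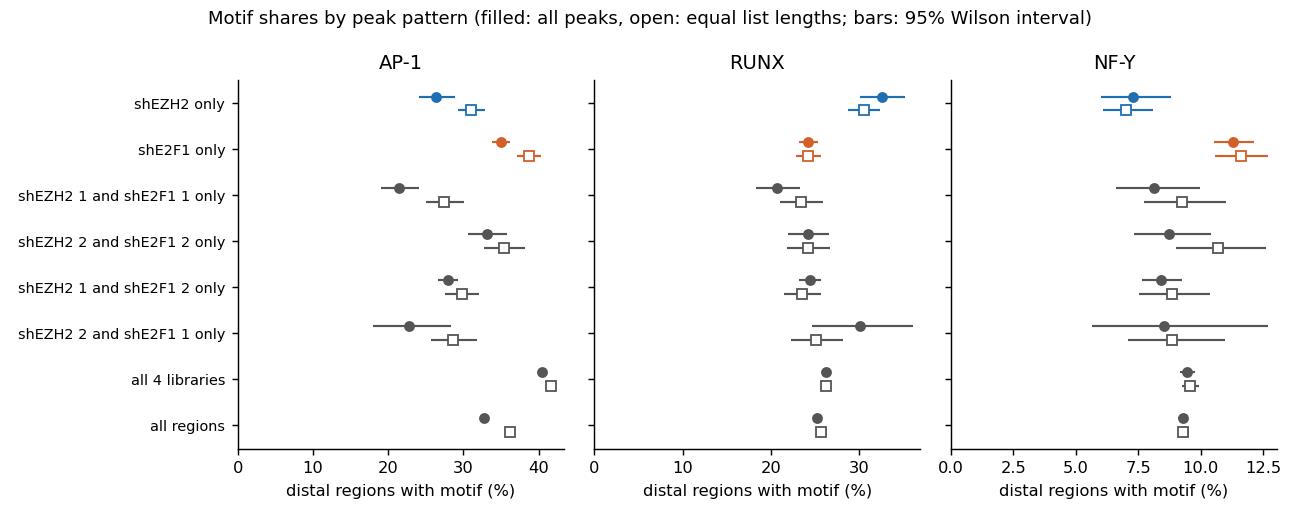
Share of distal regions (horizontal axis, percent) with the AP-1, RUNX or NF-Y letters within 150 bp of the summit, for each pattern of peaks in the 4 libraries, with all peaks (filled) and equal list lengths (open), and 95% Wilson intervals. RUNX was at 30.6% of the shEZH2 only regions at equal list lengths, against 23.4% to 25.1% in the 4 mixed patterns.

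At the 44212 shared regions, those in which every one of the 4 lists held a peak, the height of the strongest peak was compared by limma on log2 fold enrichment, each library centred on its median. Only 12 regions were higher with shEZH2 (0.0271%) and 12 were lower (0.0271%) at an adjusted p under 0.05. None of the 24 was at a promoter. They lay in introns (7 higher, 6 lower) or between genes, and the differences ran from 2.01-fold to 2.78-fold. At an unadjusted p under 0.05 there were 4690 regions (10.6%), 2334 higher and 2356 lower. The typical difference was small: the median absolute difference between the knockdowns was 0.17 on the log2 scale, against 0.14 in each mixed pairing of the 4 libraries.

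The largest difference was at chr5:170200953-170201560, between genes and 31850 bp from the TSS of C5orf58. Its fold enrichment was 6.45 and 5.12 with shEZH2 and 16.11 and 16.02 with shE2F1, and the shCtrl libraries had 12.1 and 13.6. The values with shEZH2 were the lowest of the 9 libraries. The difference was -1.48 ± 0.19 (log2, SE, limma adjusted p = 0.0173).

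The other regions lower with shEZH2 had differences of -1.38 to -1.004. The region nearest DCN, the gene of the matrix proteoglycan decorin, had 5.77 and 4.16 with shEZH2 and 11.6 and 13.5 with shE2F1, a difference of -1.35. That nearest ETV1, an ETS transcription factor, had 5.43 and 6.38 against 14.8 and 14.4, a difference of -1.30. The shEZH2 values lay below both shCtrl values at ETV1 (13.3 and 13.8) and at DCN (11.1 and 5.85), at DCN replicate 1 by a small margin.

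The region nearest GLUL, the glutamine synthetase gene, had 4.27 and 4.76 with shEZH2 against 9.85 and 11.2 with shE2F1. There the shE2F1 libraries stood apart, since 1 shCtrl library had a peak of 3.90 and the other shCtrl, DMSO, GSK126 and shSUZ12 libraries had none. The region nearest MAP3K8, a kinase upstream of ERK, had 7.81 and 7.07 against 15.6 and 15.5, a difference of -1.06. Those nearest ENSG00000288695, B4GALNT3, TUBB2B, FAM169A, GCNT4 and CDH22 differed by -1.38 to -1.16. The last of the 12, at chr9:39791403-39791804 nearest ENSG00000283886, had 11.9 and 7.48 against 16.4 and 22.0. It lies in a part of chromosome 9 with near-identical copies, where reads can be split between copies, so its value is uncertain.

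The largest difference in the other direction was at chr6:141848453-141848867, between genes and 284285 bp from the TSS of GJE1, a gap junction gene. It had 13.2 and 14.1 with shEZH2 and 5.19 and 5.04 with shE2F1, a difference of 1.43 ± 0.21 (log2, SE, limma adjusted p = 0.0234). The shCtrl libraries had 13.98 and 9.10, and the shE2F1 values were the lowest of the 9 libraries. The region nearest DLEU7, at chr13:50713555-50714472, had 14.3 and 13.8 against 5.99 and 4.72, a difference of 1.41. That nearest LMO7 (a LIM domain protein of cell junctions), also on chromosome 13, had 17.8 and 13.3 against 5.19 and 6.61.

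Smaller differences of this direction were found nearest to RCN1 (1.29), RBMS3 (1.25), MAP2K2 (1.22), TJP1 (1.2), ZNF621 (1.18) and SETD4 (1.18), all as log2 differences. MAP2K2 encodes the kinase MEK2, whose region had 10.1 and 10.2 against 4.42 and 4.32. TJP1 encodes the tight junction protein ZO-1, whose region had 15.7 and 12.6 against 5.99 and 6.30. A further 2 of the 12 lay nearest to KLHL29 and to the thyroid hormone receptor gene THRB. In all 24 regions both libraries of one knockdown lay above both of the other.

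The lower of the values rest on few tags. At the 24 summits, the whole number of tags recovered from fold enrichment and p was 9 to 35 in the libraries of the lower knockdown and 26 to 99 in those of the higher. At C5orf58 it was 18 and 12 against 66 and 90, and at GJE1 38 and 33 against 12 and 15. The RUNX letters were within 150 bp of the summit at 9 of the 12 regions higher with shEZH2 and at 3 of the 12 lower, and AP-1 at 5 of each. Of all 32897 shared distal regions, 8654 carried the RUNX letters and 13299 the AP-1 letters. The RUNX count of the lower regions and both AP-1 counts lay near these shares.

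The mean of the shCtrl libraries lay between those of the knockdowns at all 12 higher regions and at 10 of the 11 lower regions that had a peak in every shCtrl library. It was nearer to shEZH2 at 7 of the 12 and nearer to shE2F1 at 6 of the 11. These regions were chosen for a wide gap between the knockdowns, which by itself favours a place between them for other libraries. The count of 24 depended on the centring. With the values as deposited, with no centring, limma called 0 regions (smallest adjusted p = 0.121) and 3650 regions had an unadjusted p under 0.05, though the sign of all 24 differences stayed. Leaving out a library left 1 against 2, with the lone library assumed to vary like the others, and gave 55 to 167 higher and 87 to 209 lower regions.

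**Figure D4:**
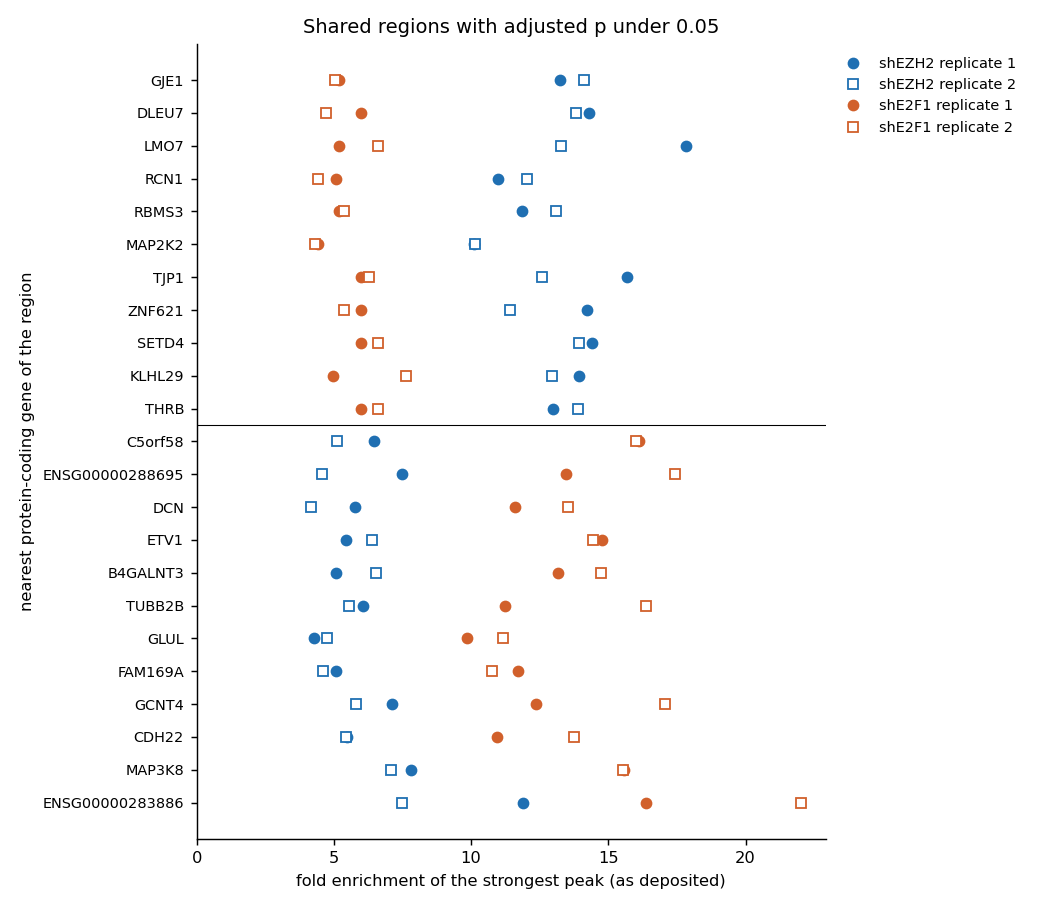
Fold enrichment of the strongest peak (horizontal axis, as deposited) in each of the 4 libraries at shared regions with a limma adjusted p under 0.05, named by the nearest protein-coding TSS. Above the line shEZH2 (blue) was higher, and below it shE2F1 (orange). At GJE1 the libraries sat at 13.2 and 14.1 against 5.19 and 5.04.

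Over all shared regions, both shEZH2 libraries lay above both shE2F1 libraries at 21.2% and below both at 18.9%, 40.1% in all. The mixed pairings of the 4 libraries gave 29.0% and 31.0%. Across the 44212 regions, which are not independent, centred log2 fold enrichment correlated at 0.826 and 0.823 within the knockdowns and at 0.754 to 0.796 between them.

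The RUNX letters marked the same direction at shared distal regions as at the regions found with one knockdown only. Of 8654 shared distal regions with the letters, both shEZH2 libraries were above both shE2F1 libraries at 25.9% and below at 17.1%. Of the 24243 without them, the shares were 21.5% and 19.8%. The mixed pairings gave 14.3% and 13.1%, and 13.0% and 16.6%, for regions with the letters. In regions of 60 to 70% GC with the letters the shares were 21.5% and 22.7%, so the lean was absent there. The size was small, with a median log2 difference of 0.05 with the letters and 0.01 without.

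The shCtrl libraries lay on the side of shEZH2. Over 8351 distal regions with the RUNX letters and a peak in all 6 libraries, the median centred log2 fold enrichment was 0.02 and 0.03 with shCtrl, and 0.02 and 0.01 with shEZH2. It was -0.01 and -0.02 in the shE2F1 libraries, which were the lowest 2 of the 6.

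TEAD showed like shares, 26.1% above and 17.3% below at 3126 regions, but the first replicates against the second gave 17.3% and 11.5% too. At NF-Y regions the shares were 18.4% above and 21.3% below, and at SP/KLF regions 17.2% and 21.8%, against 23.1% and 18.9%, and 23.2% and 18.8%, at regions without each motif. The pairing of the longest lists gave 13.4% and 16.3% at NF-Y regions and 12.3% and 19.9% at SP/KLF regions. The lean at these regions was thus no wider for the knockdowns, but that pairing leaned the same way without each motif. Its median log2 difference was -0.0189 with NF-Y and -0.0262 without, and -0.0366 and -0.0241 for SP/KLF. Between the knockdowns it was -0.0084 and 0.0251, and -0.0196 and 0.0268. The first replicates against the second gave 0.0004 and 0.0039, and -0.0092 and 0.0051. The shift with each motif was small, and widest for the knockdowns. AP-1 regions had 23.6% and 19.0%, and regions without AP-1 22.0% and 19.1%. AP-1, which was more frequent in the shE2F1 only than in the shEZH2 only regions, showed no lean to shE2F1 at shared regions.

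Promoters separated less. Of 20007 protein-coding promoters, 12090 had a peak in all 4 libraries, and limma called 0 of them (0.0%) in either direction, with a smallest adjusted p of 0.179. At an unadjusted p under 0.05 there were 372 higher and 444 lower. Every scaling, the pseudocount, the filters on level and summit distance, equal list lengths and the fit with shCtrl also gave 0. With replicate number as a block there were 1 higher and 11 lower, LGALS9 and RNF212B among them, and leaving out 1 library gave 0 to 6 higher and 0 to 12 lower. Both shEZH2 libraries lay above both shE2F1 libraries at 18.6% of promoters and below both at 17.6%, 36.1% in all, against 32.0% and 31.9% in the mixed pairings. The correlation across promoters was 0.881 and 0.882 within the knockdowns and 0.852 to 0.891 between them, so the highest value was between libraries of different knockdowns.

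At the promoters of the targeted genes the libraries were close. The EZH2 promoter had 10.98 and 11.64 with shEZH2 and 10.72 and 11.82 with shE2F1, and the 2 groups overlapped. The E2F1 promoter had 9.58 and 9.11 against 9.18 and 11.4, a centred log2 difference of -0.11. SUZ12 had 12.4 and 11.1 against 12.4 and 14.1, and EED, the H3K27me3-binding subunit of PRC2, had 9.68 and 9.33 against 7.30 and 8.95.

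CCNB1, which encodes cyclin B1, had 16.7 and 14.2 with shEZH2 and 15.1 and 15.8 with shE2F1. RRM2, a subunit of ribonucleotide reductase, had 6.602 and 6.391 against 5.70 and 7.59. At both promoters the libraries of the knockdowns overlapped, with log2 differences of 0.01 at CCNB1 and 0.00 at RRM2, and the sign of both turned with the scaling.

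Among the 9 promoters of perturbed and cell cycle genes, PLK1 and CDC20 gave the largest differences, and neither passed the adjustment. PLK1, the polo-like kinase of mitotic entry, had 10.4 and 10.5 with shEZH2 and 6.67 and 7.51 with shE2F1, and 7.27 and 8.15 with shCtrl. Its difference was 0.58 ± 0.16 (log2, SE, limma adjusted p = 0.593). The shEZH2 libraries were the highest of the 9, but the DMSO library was close, at 10.2. CDC20, an activator of the anaphase-promoting complex, had 11.98 and 11.91 against 7.53 and 11.8. Its difference of 0.36 came mainly from shE2F1 replicate 1. E2F5, a member of the E2F family, had 10.3 and 9.12 against 7.58 and 9.33, a difference of 0.22.

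The promoters with the smallest p in either direction did not pass the adjustment. LGALS9, the gene of galectin-9, had 12.2 and 11 with shEZH2 and 4.40 and 8.87 with shE2F1, a difference of 0.90. NXT2, CLDN4 (a tight junction claudin), LDOC1 and TOR3A differed by 0.57 to 0.79. In the other direction RNF212B had 10.2 and 8.31 against 13.8 and 18.7 (log2 difference -0.79, limma adjusted p = 0.179). FOLR1 (folate receptor), KANK3, SPAG17 and FRY differed by -0.97 to -0.77.

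The gene lists are described by how many of their promoters had both shEZH2 libraries above, or below, both shE2F1 libraries. These counts are to be read against the 18.6% and 17.6% of all promoters tested. No member of any list passed the adjusted threshold. Among E2F target genes of G1 and S phase, 14 of 58 were above and 12 below, with a median log2 difference of -0.07. RRM1, the large subunit of ribonucleotide reductase, stood highest at 0.36 and CCNE1, cyclin E1, lowest at -0.46. Among G2 and M phase genes the counts were 17 and 16 of 65 (median 0.01), and KIF20B, a mitotic kinesin, was lowest at -0.48.

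Of 14 PRC2 genes, 3 were above and 2 below (median 0.07), from JARID2, a PRC2 cofactor, at 0.29 to MTF2 at -0.24. Of 18 E2F and RB family genes, 3 were above and 5 below (median -0.08). LIN54 of the DREAM complex was at 0.38, and TFDP1, the dimer partner of E2F factors, was at -0.46 with 9.49 and 8.08 against 11.7 and 12.6.

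Developmental transcription factor genes, a class that PRC2 is known to silence, mostly lacked peaks. Only 38 of the listed promoters had a peak in any of the 4 libraries and 25 in all. Of these 25, 5 were above and 7 below (median -0.04), with NKX2-1 at 0.41 and PAX9 at -0.45. No promoter of this list had a peak with one knockdown only.

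Interferon response genes leaned to shE2F1. Of 38 promoters, 12 (31.6%) were below and 5 (13.2%) above, with a median of -0.08, and 6 of them (15.8%) were lower and 0 higher at an unadjusted limma p under 0.05. Over all promoters 3.67% were lower and 3.08% higher at that p. IFIT3, an antiviral RNA-binding protein, had 5.26 and 3.87 with shEZH2 and 7.39 and 7.66 with shE2F1, against 6.02 and 5.04 with shCtrl. The other 5, chosen after their values were seen, were USP18, OASL, BST2, GBP2 and TRIM21, at -0.54 to -0.33. TAP1 and PSMB9 share a peak and count as 2 promoters. The promoters of IFI44, RSAD2 and XAF1 carried a peak in the shE2F1 lists and none in the shEZH2 lists, as did 151 of the 13703 promoters with any peak. The excess of such promoters over the 30 with shEZH2 only turned at equal list lengths. RSAD2, the gene of viperin, had 4.79 and 8.18 with shE2F1 and a peak of 3.57 in 1 shCtrl library, and none with DMSO, GSK126 or shSUZ12.

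Cytoplasmic ribosomal protein genes leaned to shEZH2. Of 70 promoters, 23 (32.9%) were above and 8 (11.4%) below, with a median of 0.06 and 4 higher (5.71%) and 0 lower at an unadjusted limma p under 0.05, against 3.08% and 3.67% of all promoters. RPL13 was highest at 0.41, with 6.54 and 6.76 against 4.43 and 5.78, and RPL29 was lowest at -0.34. The others of the 4, chosen after their values were seen, were RPS12, RPS13 and RPL15, at 0.30 to 0.34. The list's median fold enrichment was 9.60 and 9.59 with shEZH2 and 8.45 and 9.35 with shE2F1, against 9.39, 9.14, 8.77 and 10.0 over all promoters in the same order.

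Among AP-1 family genes, 6 of 20 were above and 2 below (median 0.06), with BATF3 at 0.56 and JUND at -0.35. They leaned to shEZH2 in shares like those of the ribosomal protein genes, on fewer promoters. At an unadjusted limma p under 0.05, 2 of them were higher and 0 lower. The BATF promoter had a peak with shE2F1 only. Of 36 apoptosis genes, 5 were above and 8 below (median -0.03), with the TRAIL receptor gene TNFRSF10A at -0.49. Of 25 NF-kB pathway and target genes, 3 were above and 8 below (median -0.04), from NFKBIA, the inhibitor of NF-kB, at 0.31 to the chemokine gene CXCL8 at -0.36. They leaned to shE2F1 in shares like those of the interferon response genes, but 0 had an unadjusted limma p under 0.05. The leans were thus not particular to the interferon and ribosomal protein lists, and no list was tested as a set.

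Among EMT genes (epithelial to mesenchymal transition), 8 of 35 were above and 5 below (median 0.04), from CLDN4 at 0.79 to the receptor kinase gene AXL at -0.39. The TAGLN promoter had a peak with shE2F1 only. Of 19 matrix protease genes, 5 were above and 4 below (median -0.02), with TIMP1 at 0.28 and CTSD at -0.43, and the promoter of the stromelysin gene MMP10 had a peak with shEZH2 only. Of 10 mesenchymal markers, 2 were above and 3 below (median -0.04), with the intermediate filament gene VIM at 0.49. Of 8 luminal markers, 2 were above and 0 below (median 0.06), with the keratin gene KRT18 at 0.56 and ERBB2 at -0.08. The only blood cell and hepatocyte markers tested, CD14 at -0.27 and SERPINA1 at 0.26, had overlapping libraries.

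**Figure D5:**
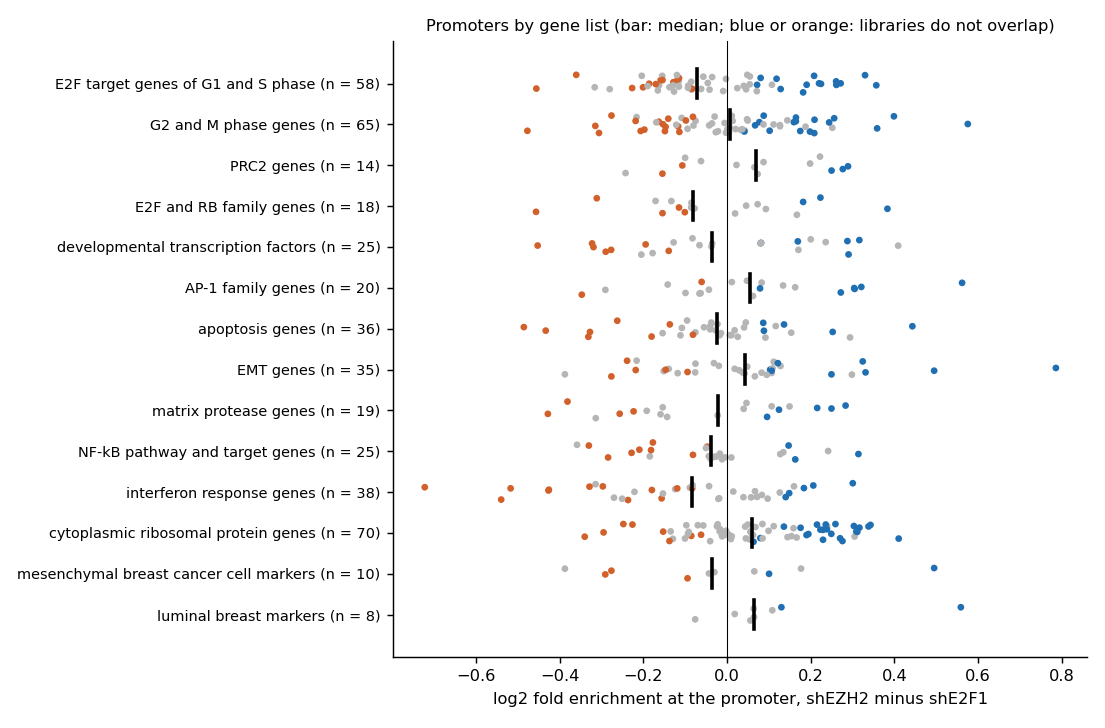
Difference in centred log2 fold enrichment at promoters, shEZH2 minus shE2F1 (horizontal axis), for every tested member of 14 gene lists. Blue and orange points are promoters whose libraries did not overlap, grey points overlapped, and the bar is the median, which lay between -0.08 (interferon response genes) and 0.07 (PRC2 genes).

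Promoters with a peak with one knockdown only were few. There were 30 with shEZH2 only and 151 with shE2F1 only with all peaks, against 44 and 28, and 187 and 6, in the mixed pairings. With lists of equal length the direction turned, to 105 with shEZH2 only and 74 with shE2F1 only, against 49 to 57 a side in the mixed pairings. The strongest by the lower of the 2 libraries, chosen after their values were seen, were BUB1B-PAK6 with 8.15 and 9.98 for shEZH2 and SPINK4 with 10.1 and 10.0 for shE2F1. BUB1B-PAK6 is a readthrough gene that shares sequence with BUB1B and PAK6, so its promoter may be counted under more than 1 gene. The SPINK4 promoter had a peak in all 5 other libraries, so the shEZH2 libraries were the only ones of the 9 without one.

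By nearest protein-coding TSS, the 1390 shEZH2 only regions fell to 1247 genes and the 6473 shE2F1 only regions to 4469. PRC2 genes had 149 regions nearest to them, of which 3 (2.01%) were shEZH2 only, all at JARID2, and 14 (9.40%) shE2F1 only, at 7 genes. Developmental transcription factors had 887, with 17 (1.92%) and 68 (7.67%), and EMT genes had 717, with 17 (2.37%) and 45 (6.28%). E2F target genes of G1 and S phase had 262, with 4 (1.53%) and 16 (6.11%). Over all regions the shares were 1.38% and 6.41%, and of the 14 shE2F1 only regions at PRC2 genes 8 were at JARID2.

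Apoptosis genes had 1 (0.351%) and 9 (3.16%) of 285, and AP-1 family genes 2 (0.948%) and 7 (3.32%) of 211. For NF-kB genes the counts were 1 (0.402%) and 18 (7.23%) of 249, and for interferon response genes 2 (1.06%) and 14 (7.41%) of 189. G2 and M phase genes had 4 and 11 of 300, E2F and RB family genes 2 and 2 of 94, matrix protease genes 9 and 18 of 339 and ribosomal protein genes 7 and 14 of 306. With so few regions a list, no list was called apart from the rest. Chosen after the counts were seen, the genes with the most shEZH2 only regions were ADCY8, TRIM32, RAPGEF2 and MARCKS, with 4 each, and those with the most shE2F1 only regions were CITED2 (9 of 50 regions), CBLB (8 of 43) and JARID2 (8 of 61). Neither CITED2, a partner of the coactivators CBP and p300, nor CBLB, an E3 ubiquitin ligase, had a shEZH2 only region.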

How the data were processed

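ATAC-seq of MDA-MB-231 cells measured open chromatin, and samples were grouped by the deposited labels. Per the submitters' notes and the study's methods, the authors aligned the reads with Bowtie2 to hg38 (GRCh38), moved read ends to correct for Tn5 cutting, and deposited a peak list for each library. The peak caller is not given in the sources used here. The deposited lists hold, for each peak, a score, the fold enrichment (a ratio over the local background, by the authors), the −log10 of p and q, and the summit. Scores were not used. The lists carry no read totals, so counts per region and their tests were not used here. The depth was recovered instead: fold enrichment and p fix whole summit tags and a Poisson background, and 100% of peaks could be written this way (largest error 0.00118 in −log10 p). No 2 libraries shared more than 1 identical peak.

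Peaks were merged at 1 bp. Differences were tested with limma 3.58.1 (lmFit, eBayes with trend, two-sided, Benjamini-Hochberg over all features, threshold 0.05) in R 4.3.3, on log2 fold enrichment centred on the median of each library, with the 4 libraries in the fit. Promoters reached 1 kb up and down from the canonical TSS. Motif shares have 95% Wilson intervals. A peak below the caller's threshold counts as absent. Groups overlap or not by centred values. Python 3.11.15, numpy 2.4.6, pandas 2.3.3, scipy 1.17.1 and matplotlib 3.10.9 were used. The programs were tested on simulated data.

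The comparison, the 16 gene lists and the motifs were chosen with earlier results of these data known. The rule for naming was, for regions with one knockdown only, the 5 a side with the highest lower percentile of fold enrichment; by limma, the 10 largest differences in each direction that passed, or the 5 smallest p where none passed; the promoters of EZH2, E2F1, SUZ12, EED, CCNB1, RRM2, CDC20, PLK1 and E2F5; and in each list the largest difference in each direction. The 4 other regions that passed limma are also named, and some items are not reported here. Alternatives were equal list lengths, −log10 q of at least 5, an overlap of 100 bp, summit windows of 250 bp, tags thinned to one depth, other scalings, a pseudocount of 1, filters on level and on summit distance, shCtrl in the fit, a replicate block and leaving out each library.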

Additional observations from a re-analysis of the deposited data

How the results depend on the processing

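The counts of regions with a peak with shEZH2 only and shE2F1 only were 2680 and 3615 with equal list lengths, and stayed within 1.5 times of 1390 and 6473 with a −log10 q of at least 5, an overlap of 100 bp, summit windows and thinned tags. Leaving out 1 library gave 2008 to 8500 and 8003 to 21540. Regions higher and lower with shEZH2 by limma were 12 and 12, and 7 and 8 with cyclic loess, 6 and 8 with quantile normalization, 0 and 0 with no centring, 7 and 8 among regions above the median level, 4 and 11 with equal list lengths, 4 and 4 with shCtrl added, and 55 to 167 and 87 to 209 without 1 library. Promoters were 0 and 0 in all of these but 0 to 6 and 0 to 12 without 1 library.

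The shared replicate numbers carried no pairing: replicate 1 minus replicate 2 of shEZH2 correlated with that of shE2F1 at -0.0132 across regions and 0.00483 across promoters. With the number as a replicate block, limma gave 262 and 344 regions and 1 and 11 promoters. The sign turned at CCNB1 with cyclic loess (-0.0009) and no centring (-0.0027), and at RRM2 with cyclic loess (0.008) and quantile normalization (0.0228), and the cause was not tested. Of the 24 regions, 9 missed the threshold with cyclic loess, 10 with quantile normalization and 24 with no centring, all with the same sign. The promoter shares of regions with shEZH2 only and shE2F1 only were 6.49% and 2.79% with equal list lengths and 10.3% and 5.27% with summit windows. The lists hold only peaks that passed a −log10 q of about 2, so absence of a peak is not absence of accessibility, and the shallowest library limits which peaks could be called.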
